A study of Mus musculus with 12 samples.

Results

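The 10 BCL2 family genes described here are Bcl2, Bcl2l1, Mcl1, Bax, Bak1, Bad, Bid, Bcl2l11, Bbc3 and Pmaip1, chosen by name from the 49315 genes of the count table. All 10 had a row, and all 10 were among the 16565 genes with enough counts to be tested. Bulk RNA was sequenced from primary chondrocytes of the epiphyses of 5-day-old mice. Wild type (WT), Phlpp1 knockout (Phlpp1-/-, Phlpp1 KO), Phlpp2 knockout (Phlpp2-/-, Phlpp2 KO) and Phlpp1/2 knockout mice (Phlpp1/2-/-, Phlpp1/2 KO) gave 3 libraries each. Cells of all groups were freed by collagenase, stored frozen, thawed and plated in serum-containing medium, and their RNA was extracted the next day. All mice were labelled female and C57BL6, except that the strain of Phlpp2 KO 3 was given as C57BL7 and those of Phlpp1/2 KO 1, 2 and 3 as C57BL8, C57BL9 and C57BL10. The labels name no Cre driver, no deleted exon and no batch, and do not say whether a library came from 1 animal or a pool, so p-values measure the spread between these libraries, which may be technical.

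Proteins of the BCL2 family decide whether the outer membrane of the mitochondrion stays intact. The anti-death members (BCL2, BCL-XL from Bcl2l1, and MCL1) hold back the effectors BAX and BAK, which form pores that release cytochrome c. The BH3-only members (BAD, BID, BIM from Bcl2l11, PUMA from Bbc3 and NOXA from Pmaip1) free or activate the effectors in response to stress. PHLPP phosphatases remove phosphate from AKT, a kinase that phosphorylates BAD and keeps FOXO transcription factors out of the nucleus, and FOXO factors are known activators of Bcl2l11 and Bbc3. In growing cartilage, BCL2 family genes are known for setting how long hypertrophic chondrocytes survive. The comparisons of the knockouts with WT ask whether losing either phosphatase or both went with a different RNA level of any of these genes.

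None of the 10 genes passed the test in any comparison of genotypes. Over the 30 comparisons of a gene with WT (10 genes, 3 knockouts), the 95% intervals of the fold change ran from 0.7-fold at the lowest bound (Bbc3 in the Phlpp1 KO) to 1.56-fold at the highest (Pmaip1 in the Phlpp1 KO). The largest difference was that of Pmaip1 in the Phlpp1 KO, 0.38 on the log2 scale, with an adjusted p of 0.121 (edgeR, quasi-likelihood test, Benjamini-Hochberg over all tested genes). DESeq2 and limma-voom also called 0 of the 10 genes in every comparison. Of the 16565 tested genes, DESeq2 called 21 to 990 in a comparison and limma-voom 2 to 90, so few members would be called at those shares.

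Depth lay between 21706337 and 33115345 counts. Levels are given as CPM, counts per 1000000 counts of the TMM-scaled library, of which a single count made 0.0295 to 0.0453. The 10 chondrocyte markers, Col2a1 and Acan among them, summed to between 30300 and 55100 CPM in every library, whereas the 6 neutrophil, 6 lymphocyte and 6 erythroid markers were each below 1 CPM in all 12. In bulk RNA, fewer cells of a type and less RNA per cell cannot be told apart. Phlpp1 stood at 39.7 CPM in WT, 9.16 in the Phlpp1 KO, 41.4 in the Phlpp2 KO and 8.22 in the Phlpp1/2 KO, with adjusted p of 7.11e-08 and 3.45e-08 for the Phlpp1 KO and the Phlpp1/2 KO against WT. Phlpp2 RNA was reduced less, from 25.5 CPM in WT to 17.8 in the Phlpp2 KO (log2 fold change -0.52, adjusted p = 0.0607) and 10.9 in the Phlpp1/2 KO (-1.22, adjusted p = 2.97e-05). As the labels do not say which exons were deleted, reads from the rest of the gene could remain. Xist was at 278 to 587 CPM in 10 libraries but at 13.9 in Phlpp1 KO 1 and 3.77 in Phlpp1/2 KO 1, the latter with 108.5 CPM of Y-linked genes, against the female label. The osteoblast marker sum was 381 to 567 CPM in WT, 314 to 345 in the Phlpp1 KO, 315 to 679 in the Phlpp2 KO and 249 to 376 in the Phlpp1/2 KO. Col1a1 alone was 236 to 648 CPM, with Bglap and Dmp1 below 1 CPM in all 12. The fibroblast and perichondrium sum was 308 to 474 CPM (Col3a1 266 to 419). The macrophage and osteoclast sum was 124 to 159 CPM (Ctsk 98.5 to 126), and the endothelial sum 2.56 to 11.2. The sum of 10 skeletal muscle markers was 18.7 to 89.8 CPM in WT, 9.76 to 43.2 in the Phlpp1 KO, 7.86 to 14.9 in the Phlpp2 KO and 13.2 to 26.4 in the Phlpp1/2 KO, with Actn2 and Ckm below 1 CPM throughout. The sum of 7 keratinocyte markers was 11 to 11.9 CPM in WT, 9.56 to 10.2 in the Phlpp1 KO, 8.47 to 9.2 in the Phlpp2 KO and 8.51 to 11.8 in the Phlpp1/2 KO, with Krt5, Krt14, Krt1 and Krt15 below 1 CPM. The muscle and keratinocyte sums were thus lower in every Phlpp2 KO library than in every WT library. The keratinocyte sum was also lower than WT in every Phlpp1 KO library, and the osteoblast sum in every Phlpp1 KO and Phlpp1/2 KO library. The part of these marker shifts in the knockout differences given below was not tested. Without Phlpp1 KO 1 and Phlpp1/2 KO 1, 0 of the 10 BCL2 family genes were called in any comparison, as with them. Over all tested genes, 2 to 28 were called in a comparison without these libraries.

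The genes spanned a wide range of levels in WT chondrocytes, compared here as CPM per kb of exon. Bax was highest at 226.9 CPM per kb (SD 9.59, n = 3), above 98.7% of the 13605 tested protein-coding genes. Mcl1 at 57.8 (SD 1.18), Bcl2l1 at 46.8 (SD 1.84) and Bak1 at 31.5 (SD 0.168) CPM per kb followed. The BH3-only genes Bad, Bid and Bbc3 stood at 15.2 (SD 0.900), 8.80 (SD 0.391) and 6.70 (SD 0.716) CPM per kb. Bcl2, at 2.72 CPM per kb (SD 0.0851), was the lowest of the 3 anti-death genes and lay at the 37.3rd percentile of coding genes. Pmaip1 at 1.91 (SD 0.171) and Bcl2l11 at 1.02 (SD 0.0911) CPM per kb were lowest, with Bcl2l11 at the 22.9th percentile. This order held in all 12 libraries, with each gene divided by 1 fixed length, that of all its annotated exons together. It depends on that length, and which transcripts were in use was not tested. In plain CPM in WT, Bcl2l1 (214.5) was above Mcl1 (197.6), Bcl2 (24.9) above Bbc3 (14.2) and Bcl2l11 (8.17) above Pmaip1 (5.22). For 8 of the 9 pairs of neighbours in the order per kb, the lowest of 12 values of the higher gene was above the highest of the lower gene. The exception was Bcl2 and Pmaip1, where the lowest Bcl2 value was 2.63 and the highest Pmaip1 value 2.65 CPM per kb.

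**Figure D1:**
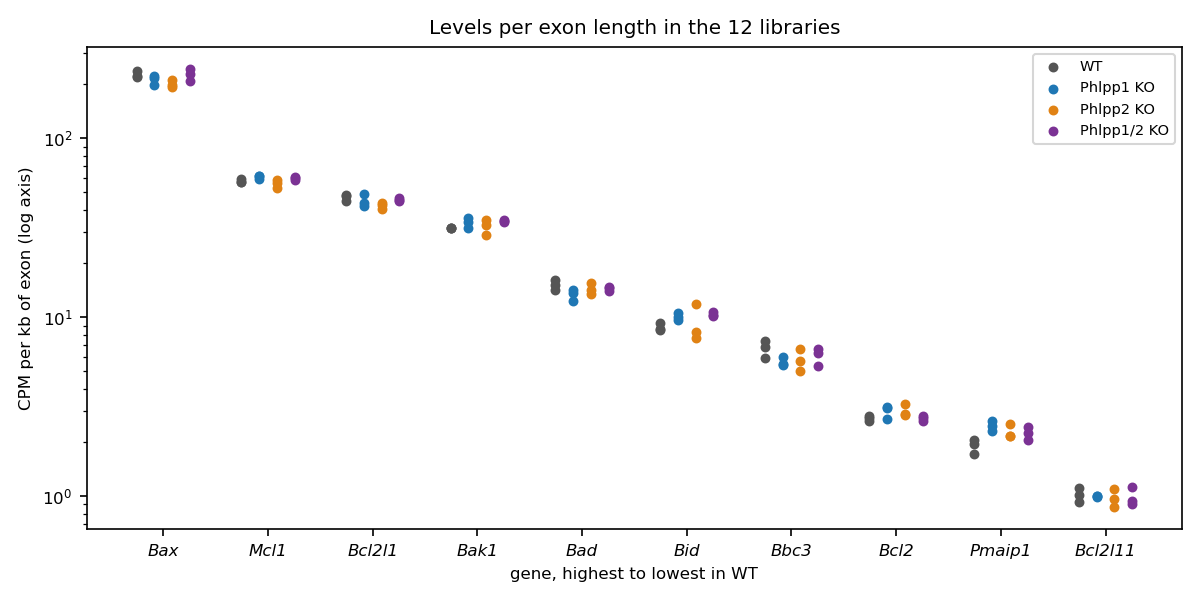
Level of each gene as CPM per kb of exon on a log axis (vertical) in each of the 12 libraries, with genes ordered along the horizontal axis by their WT mean and points coloured by genotype. The spread among libraries of a gene is small beside the span between genes: Bax at the left is at 226.9 and Bcl2l11 at the right at 1.02 in WT.

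Summed per length, transcripts of the effectors Bax and Bak1 made up 64.7% of the 10 genes in WT (SD 1.23, n = 3), those of the anti-death genes 26.9% (SD 1.08) and those of the BH3-only genes 8.42% (SD 0.266). In the Phlpp1 KO the effector, anti-death and BH3-only shares were 63.6%, 28% and 8.43%. They were 63.7%, 27.4% and 8.92% in the Phlpp2 KO, and 64.8%, 26.8% and 8.48% in the Phlpp1/2 KO. For each share, the range of the 3 WT libraries overlapped that of every knockout: 64% to 66.1% in WT against 62.5% to 64.9% in the Phlpp1 KO for the effectors, for example. These shares depend on the same exon lengths. They describe RNA, and say nothing of protein.

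Of the anti-death genes, Bcl2 (ENSMUSG00000057329, chromosome 1, 106538178 to 106714274, minus strand, mm10) encodes the founding survival protein of the family. It was at 25.0, 24.1 and 25.6 CPM in WT and at 28.8, 24.8 and 28.5 CPM in the Phlpp1 KO. Phlpp2 KO libraries held 26.1, 26.4 and 30.0 CPM, and the Phlpp1/2 KO libraries 24.1, 24.9 and 25.7 CPM. All 3 Phlpp2 KO values were above WT, 1 Phlpp1 KO value fell among the WT values, and the Phlpp1/2 KO values overlapped those of WT. The log2 fold changes against WT were 0.14 (SE 0.078, adjusted p = 0.349) for the Phlpp1 KO and 0.14 (SE 0.078, adjusted p = 0.449) for the Phlpp2 KO. For the Phlpp1/2 KO the fold change was 1, with a 95% interval of 0.89 to 1.12.

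Bcl2l1 (ENSMUSG00000007659, chromosome 2, 152780668 to 152831728, minus strand) encodes BCL-XL and its short pro-death splice form, which gene counts do not separate. Its WT libraries held 218.8, 204.7 and 219.8 CPM and its Phlpp1 KO libraries 193.0, 223.6 and 199.0 CPM. In the Phlpp2 KO it was at 185.5, 193.8 and 200.0 CPM, and in the Phlpp1/2 KO at 213.0, 205.0 and 208.3 CPM. The Phlpp2 KO libraries were the only knockout group lying wholly below WT, with a log2 fold change of -0.15 (SE 0.062, unadjusted p = 0.0302, adjusted p = 0.314).

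Mcl1 (ENSMUSG00000038612, chromosome 3, 95658788 to 95663176, plus strand) encodes a survival protein with a short life in the cell. WT libraries had 194.8, 195.9 and 202.2 CPM and Phlpp1 KO libraries 210.8, 209.3 and 202.0 CPM. Values in the Phlpp2 KO were 198.7, 191.4 and 179.8 CPM, and in the Phlpp1/2 KO 208.2, 205.7 and 198.9 CPM. It varied least of the 10 genes, the highest library being 1.17 times the lowest. Between the single knockouts, the Phlpp1 KO was higher in 3 of 3 libraries (log2 difference 0.13, SE 0.052, 95% interval of the fold 1.01 to 1.18, adjusted p = 0.415). Over both backgrounds, the 6 libraries without Phlpp1 against the 6 with it gave 0.09 (SE 0.037, unadjusted p = 0.0342, adjusted p = 0.303).

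Among the effectors, Bax (ENSMUSG00000003873, chromosome 7, 45461697 to 45466898, minus strand) encodes a pore-forming protein that waits in the cytosol and is a known p53 target. It was at 347.3, 374.9 and 350.5 CPM in WT and at 353.3, 341.3 and 311.2 CPM in the Phlpp1 KO. The Phlpp2 KO libraries had 306.6, 332.7 and 314.4 CPM, all below WT, and the Phlpp1/2 KO libraries 360.0, 384.9 and 329.7 CPM, on both sides of it. The log2 fold change of the Phlpp2 KO against WT was -0.17 (SE 0.070, fold 0.889, 95% interval 0.801 to 0.987, adjusted p = 0.314). Against the Phlpp2 KO, the Phlpp1/2 KO was higher by 0.17 (SE 0.070, unadjusted p = 0.0278, adjusted p = 0.533).

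Bak1 (ENSMUSG00000057789, chromosome 17, 27019810 to 27029009, minus strand) encodes the effector that sits in the mitochondrial membrane. Its WT values were close together at 76.3, 75.9 and 75.5 CPM, and its Phlpp1 KO values were 76.1, 86.7 and 82.1 CPM. The Phlpp2 KO libraries spread from 69.0 to 84.6 CPM around 78.8, and the Phlpp1/2 KO libraries held 82.8, 84.0 and 82.3 CPM. All Phlpp1/2 KO libraries were above all WT libraries; the log2 difference was 0.13 (SE 0.071, adjusted p = 0.525). Exons of Ggnbp1 on the opposite strand share 437 bases (18.2%) with Bak1. Ggnbp1 had 828 counts in the 12 libraries together against 27386 for Bak1, and the effect of the shared bases on the Bak1 counts was not tested.

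**Figure D2:**
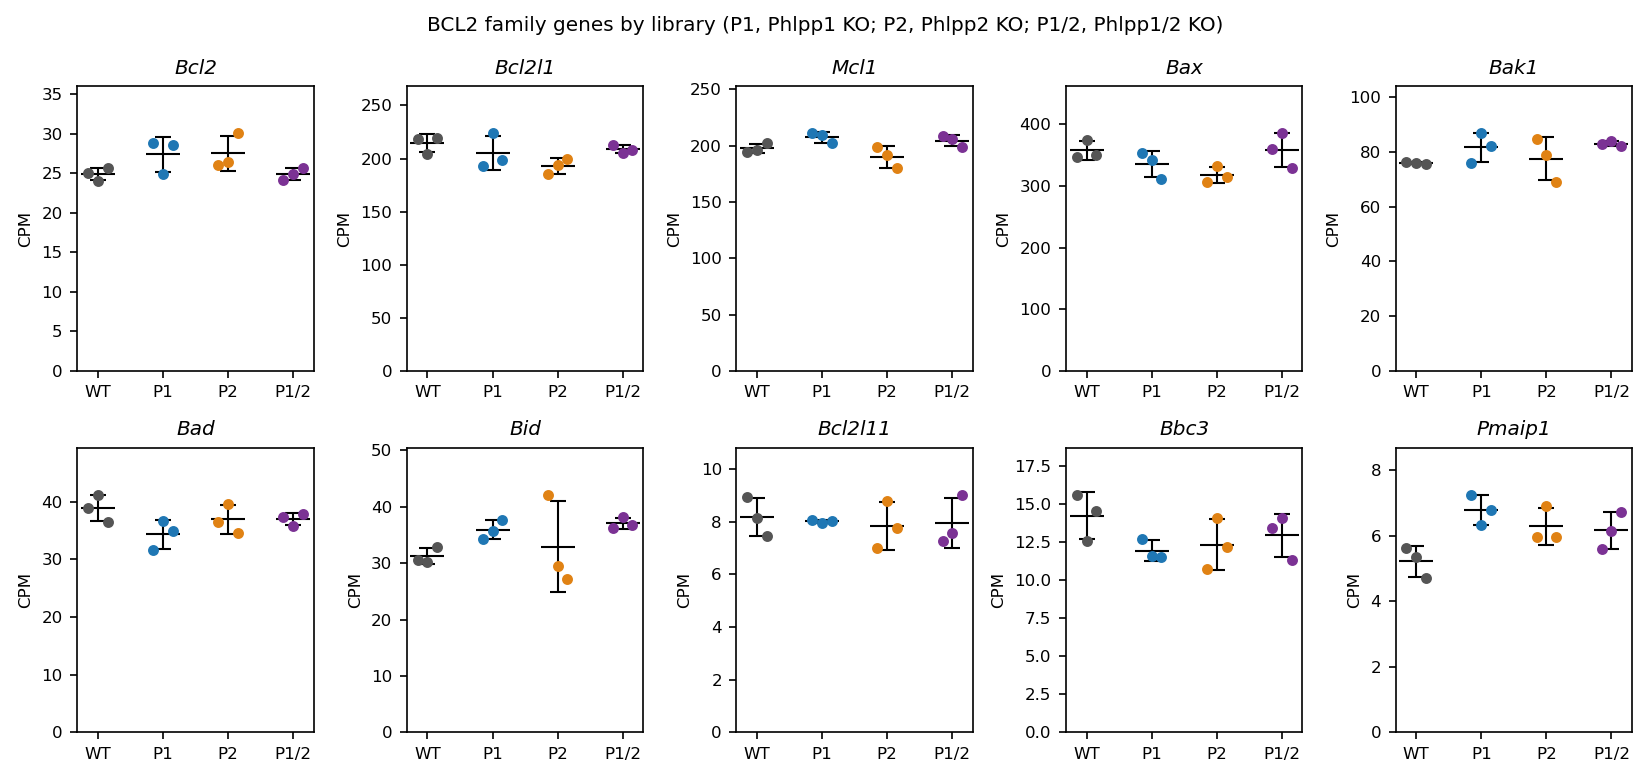
TMM-scaled CPM (vertical axis, from 0) of each of the 10 genes in each library (points), with the mean and SD over 3 libraries of each genotype (bars). Bid stands out for 1 Phlpp2 KO library at 42.1 CPM, and Pmaip1 for 3 Phlpp1 KO libraries above the WT ones.

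Of the BH3-only genes, Pmaip1 (ENSMUSG00000024521, chromosome 18, 66458533 to 66465565, plus strand) encodes NOXA, which binds mainly MCL1 and is a known target of p53 and of the integrated stress response. Its WT libraries were at 5.61, 5.33 and 4.70 CPM and its Phlpp1 KO libraries at 7.23, 6.31 and 6.78 CPM. The Phlpp2 KO libraries were at 5.97, 6.91 and 5.94 CPM and the Phlpp1/2 KO libraries at 5.60, 6.15 and 6.70 CPM. Every Phlpp1 KO and every Phlpp2 KO library was above all WT libraries, while the lowest Phlpp1/2 KO library fell within the WT values. The Phlpp1 KO was 1.3-fold higher than WT (log2 0.38, SE 0.121, 95% interval of the fold 1.08 to 1.56, unadjusted p = 0.00802, adjusted p = 0.121). DESeq2 gave an adjusted p of 0.0712 and limma-voom 0.127. For the Phlpp2 KO the log2 fold change was 0.27 (SE 0.122, adjusted p = 0.353) and for the Phlpp1/2 KO 0.24 (SE 0.121, adjusted p = 0.492). These rest on 123 to 227 counts per library, the fewest of the 10 genes, and all 3 comparisons share the same WT libraries.

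Bid (ENSMUSG00000004446, chromosome 6, 120891930 to 120916853, minus strand) encodes the protein that caspase-8 cuts to carry a death-receptor signal to the mitochondrion. WT libraries had 30.6, 30.3 and 32.8 CPM, and Phlpp1 KO libraries 34.4, 35.7 and 37.7 CPM. The Phlpp1/2 KO libraries had 36.3, 38.2 and 36.8 CPM. In the Phlpp2 KO, 2 libraries were at 29.4 and 27.1 CPM, but Phlpp2 KO 1 was at 42.1 CPM, the highest of all 12. Thus the 6 libraries without Phlpp1 lay between 34.4 and 38.2 CPM and 5 of the 6 libraries with it between 27.1 and 32.8 CPM. The log2 fold change was 0.20 (SE 0.126, adjusted p = 0.398) for the Phlpp1 KO and 0.25 (SE 0.126, adjusted p = 0.499) for the Phlpp1/2 KO against WT. Over both backgrounds Phlpp1 loss gave 0.19 (SE 0.089, adjusted p = 0.368). Without Phlpp2 KO 1 this value was 0.30 with an adjusted p of 0.00756, and the Phlpp1 KO against the Phlpp2 KO gave 0.34 with an adjusted p of 0.0397. Leaving that library out also took the genes called for Phlpp1 loss from 98 to 568 and those between the single knockouts from 25 to 207. It was left out because each library was left out in turn, and no label sets it apart.

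Exons of Bid and of Bcl2l13, another family gene on the opposite strand, share 628 bases (17.7% of the Bid exons), and the strand setting of the counting is not stated. Bcl2l13 was at 57.1 to 65.7 CPM across libraries, and in Phlpp2 KO 1 it was at 60.3 CPM, within the range of the others. Whether the shared bases bear on the Bid value of Phlpp2 KO 1 was not tested. Bak1 was also highest in that library among the Phlpp2 KO libraries, at 84.6 CPM.

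Bad (ENSMUSG00000024959, chromosome 19, 6941861 to 6951899, plus strand) encodes the BH3-only protein that AKT phosphorylates. It was at 39.0, 41.2 and 36.6 CPM in WT and at 31.6, 36.6 and 34.9 CPM in the Phlpp1 KO. The Phlpp2 KO libraries had 36.5, 39.7 and 34.6 CPM, and the Phlpp1/2 KO libraries 37.4, 35.8 and 37.8 CPM. The groups overlapped in each comparison with WT, and the log2 fold change of the Phlpp1 KO was -0.18 (SE 0.074, unadjusted p = 0.0314, adjusted p = 0.197). Bad shares 524 exon bases (20.5%) with Gpr137 on the opposite strand, which had 7034 counts against 12623. Gpr137 was at 20.43 to 22.59 CPM in WT, 19.05 to 20.44 in the Phlpp1 KO, 20.21 to 20.69 in the Phlpp2 KO and 19.33 to 20.94 in the Phlpp1/2 KO. The effect of the shared bases on the Bad counts was not tested.

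Bcl2l11 (ENSMUSG00000027381, chromosome 2, 128126038 to 128162547, plus strand) and Bbc3 (ENSMUSG00000002083, chromosome 7, 16308393 to 16318205, plus strand) encode BIM and PUMA, which bind all anti-death members. Each has a FOXO core motif in a 250-base window before an annotated start. The motif of Bcl2l11 lies before the annotated gene, whereas that of Bbc3 lies within the annotated gene, before a start inside it. Bax has in its own window a 10-base p53 motif, which is only part of a p53 site and not a whole one. These motifs are printed because FOXO factors and p53 are the regulators through which the AKT pathway and stress are known to reach these genes. Sequences are from RefSeq on the GRCm38 build, written 5′ to 3′ along the gene's strand with the motif in capitals. They lie at chr2:128125801-128125827 (plus strand), chr7:16310084-16310110 (plus strand) and chr7:45467080-45467109 (minus strand), outside annotated exons.
Bcl2l11: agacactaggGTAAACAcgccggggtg
Bbc3: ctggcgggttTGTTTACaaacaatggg
Bax: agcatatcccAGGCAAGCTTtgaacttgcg
The FOXO core searched was GTAAACA on both strands, and in Bbc3 it reads on the opposite strand. It was in 2 of the 15 windows of 250 bases found for 9 of the 10 genes, and in 3.17% of all 32851 such windows. The 10-base partial p53 site was in 1 of the 15 windows and in 7.13% of all windows. The cAMP response element TGACGTCA was in 0 of the 15 and 1.55% of all. The NF-kB site was in 2 of the 15 windows, those of Bbc3 and Bcl2l1, and in 3.9% of all. A match is a description of the letters and not a site of binding.

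Neither gene with the FOXO motif was called in any comparison. Bcl2l11 was at 8.92, 8.14 and 7.46 CPM in WT, 8.04, 7.95 and 8.03 CPM in the Phlpp1 KO, 6.98, 8.77 and 7.74 CPM in the Phlpp2 KO and 7.25, 7.56 and 9.01 CPM in the Phlpp1/2 KO. The WT values enclosed all 3 Phlpp1 KO values, and the fold changes against WT were 0.981 (95% interval 0.82 to 1.17), 0.96 (0.802 to 1.15) and 0.973 (0.814 to 1.16) for the 3 knockouts in that order. Bbc3 was at 15.6, 12.6 and 14.5 CPM in WT and at 12.7, 11.6 and 11.5 CPM in the Phlpp1 KO. In the Phlpp2 KO it was at 10.7, 14.06 and 12.2 CPM, with the Phlpp1/2 KO libraries at 13.4, 14.04 and 11.3 CPM. Its mean was below WT in each knockout, with overlapping libraries each time, and the Phlpp1 KO gave a log2 fold change of -0.25 (SE 0.121, 95% interval of the fold 0.7 to 1.01, adjusted p = 0.262).

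**Figure D3:**
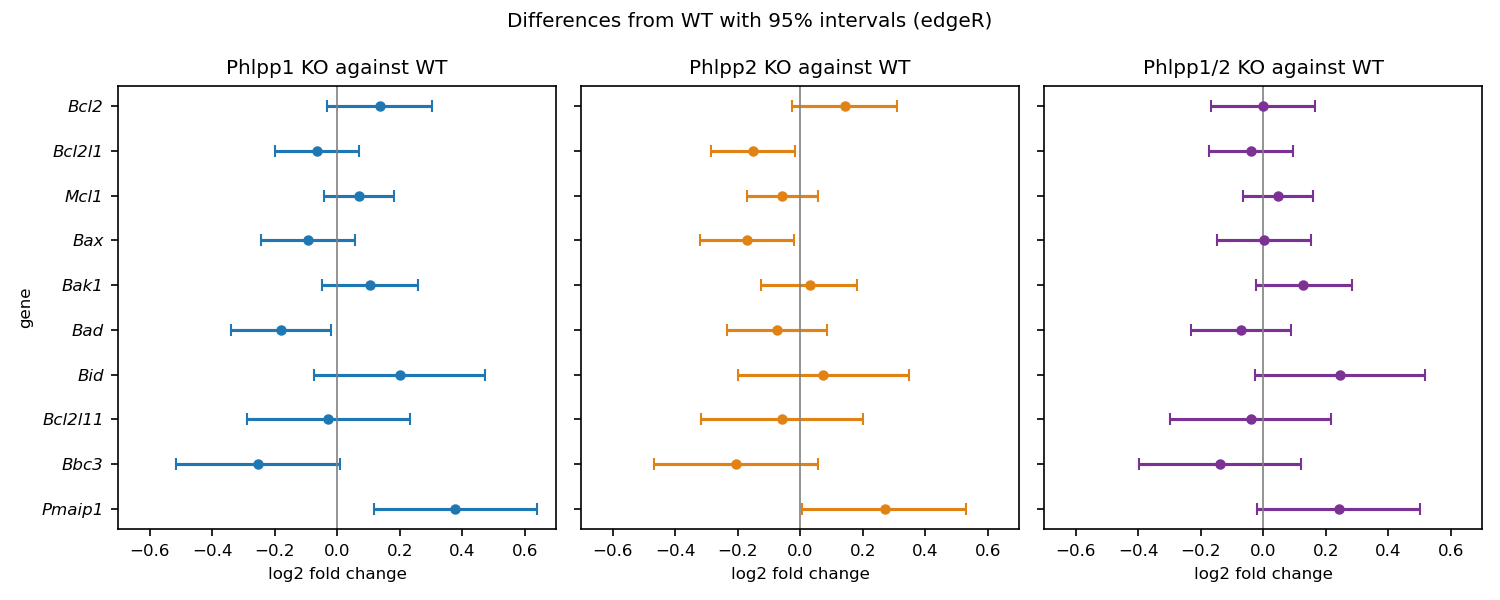
Log2 fold change of each gene against WT (horizontal axis) with its 95% interval from edgeR, in 1 panel for each knockout. Of 30 intervals, 5 do not hold 0: Pmaip1 (0.12 to 0.64) and Bad (-0.34 to -0.02) in the Phlpp1 KO, and Bcl2l1 (-0.29 to -0.02), Bax (-0.32 to -0.02) and Pmaip1 (0.01 to 0.53) in the Phlpp2 KO.

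Counted over the family, 0 of 10 genes were called in the Phlpp1 KO against WT by edgeR, where 0.537% of all tested genes were. At an unadjusted p under 0.05 there were 2 of 10 (Pmaip1 and Bad), against 20.4% of all tested genes, and the 3 and 3 libraries did not overlap for 2 of 10 (Bid and Pmaip1), against 28.2%. The family's median log2 fold change was 0.02, and that of all tested genes -0.01. In the Phlpp2 KO the counts were 0 of 10 called (background 0.121%), 3 of 10 at an unadjusted p under 0.05 (Bcl2l1, Bax and Pmaip1, background 13.8%) and 4 of 10 without overlap (Bcl2 and Pmaip1 higher, Bcl2l1 and Bax lower, background 19.1%). In the Phlpp1/2 KO they were 0 of 10 called (background 0.235%), 0 of 10 at an unadjusted p under 0.05 (background 11.1%) and 2 of 10 without overlap (Bak1 and Bid, background 18.9%). The family's median absolute log2 fold change in the 3 knockouts was 0.12, 0.11 and 0.06, beside 0.15, 0.12 and 0.12 over all tested genes.

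Between the knockouts, 0 of 10 genes were called in each pair by edgeR. Against the Phlpp1 KO, the Phlpp1/2 KO gave 0 of 10 at an unadjusted p under 0.05 (7.9% of all tested genes, of which 0.0121% were called). Against the Phlpp2 KO it gave 1 of 10, Bax (8.84%, with 0.0724% called), and the Phlpp1 KO against the Phlpp2 KO gave 1 of 10, Mcl1 (10.4%, with 0.151% called). The main effect of Phlpp1 loss, over both backgrounds, gave 0 called and 1 of 10, Mcl1, at an unadjusted p under 0.05 (0.592% and 14.4% of all genes). That of Phlpp2 loss gave 0 of 10 at both levels (0.0906% and 6.94%).

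The interaction compares the Phlpp1/2 KO with the sum of both single-knockout differences on the log2 scale. It was called for 0 of 10 genes (0.0483% of all tested genes), with 3 of 10 at an unadjusted p under 0.05 (14.5%). For Bax the Phlpp1/2 KO was higher than the sum by 0.27 (SE 0.098, adjusted p = 0.221). For Bcl2 it was lower by a log2 difference of -0.28 (SE 0.109, adjusted p = 0.248), and for Pmaip1 by -0.41 (SE 0.169, adjusted p = 0.277). In these 3 genes both single knockouts had means on the same side of WT.

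The balance of survival and death transcripts was also read as a ratio of counts within each library, which needs no scaling between libraries, for 9 pairs of genes of which 2 were tested. The log2 ratio of Bcl2 to Bax was -3.73 (SD 0.186) in the 6 libraries without Phlpp1 and -3.69 (SD 0.201) in the 6 with it, a difference of -0.04 (exact two-sided permutation test, p = 0.701). The log2 ratio of Mcl1 to Bcl2l11 was 4.69 (SD 0.129) against 4.60 (SD 0.161), a difference of 0.09 (exact two-sided permutation test, p = 0.286). Adjusted over these 2 tests the values were 0.701 and 0.572, and the smallest p that 6 against 6 allows is 0.00216. By genotype, Bcl2 to Bax was -3.84 in WT, -3.62 in the Phlpp1 KO, -3.53 in the Phlpp2 KO and -3.84 in the Phlpp1/2 KO, with SD between 0.103 and 0.166. The difference between libraries without and with Phlpp1 was thus 0.23 where Phlpp2 was intact (Phlpp1 KO against WT, overlapping) and -0.31 where it was not (Phlpp1/2 KO below Phlpp2 KO in all libraries), and the test over 6 and 6 averages these. All 3 Phlpp2 KO values (-3.66 to -3.39) lay above all WT values (-3.96 to -3.77).

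Of the ratios not tested, 4 had knockout libraries wholly to one side of WT, and they are given as values. Of single tested genes, 28.2% did not overlap WT in the Phlpp1 KO, 19.1% in the Phlpp2 KO and 18.9% in the Phlpp1/2 KO. The same share over ratios of other gene pairs was not computed, so the count of 4 is not a result about survival and death. Mcl1 to Pmaip1 was 5.12 to 5.43 in WT, 4.87 to 5.05 in the Phlpp1 KO and 4.79 to 5.06 in the Phlpp2 KO. Mcl1 to Bax was -0.94 to -0.79 in WT and -0.75 to -0.62 in the Phlpp1 KO. Bcl2l1 to Bak1 was 1.43 to 1.54 in WT, 1.28 to 1.37 in the Phlpp1 KO and 1.29 to 1.36 in the Phlpp1/2 KO. Mcl1 to Bak1 was 1.35 to 1.42 in WT and 1.27 to 1.33 in the Phlpp1/2 KO. The other 3, Bcl2l1 to Bax, Bcl2 to Bcl2l11 and Bcl2l1 to Bad, overlapped WT in every knockout.

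Bcl2 is a near neighbour of Phlpp1: its annotated 3′ end begins 143.9 kb after the end of Phlpp1 on chromosome 1. As Phlpp1 RNA fell by 2.11 (Phlpp1 KO) and 2.27 (Phlpp1/2 KO) on the log2 scale, the difference of Bcl2 was 0.14 and 0.00. Of 12 tested genes within 1000 kb of Phlpp1, 0 were called in any knockout against WT by edgeR, where 0.121% to 0.537% of all tested genes were. The nearest on the other side, Zcchc2, lies 137.7 kb before Phlpp1. Pign, a gene of GPI-anchor synthesis 508.1 kb before Phlpp1, was the 1 neighbour called elsewhere. It stood at 46.2 CPM in WT, 39.0 in the Phlpp1 KO, 52.9 in the Phlpp2 KO and 34.8 in the Phlpp1/2 KO. Its main effect of Phlpp1 loss was -0.43 (SE 0.064, adjusted p = 0.00886), called under all 18 alternative settings, and its Phlpp1/2 KO against Phlpp2 KO difference was -0.60 (SE 0.090, adjusted p = 0.0299), called under 6 of 13. Near Phlpp2, 0 of 21 tested genes were called in any comparison, where 0.0121% to 0.592% of all tested genes were.

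**Figure D4:**
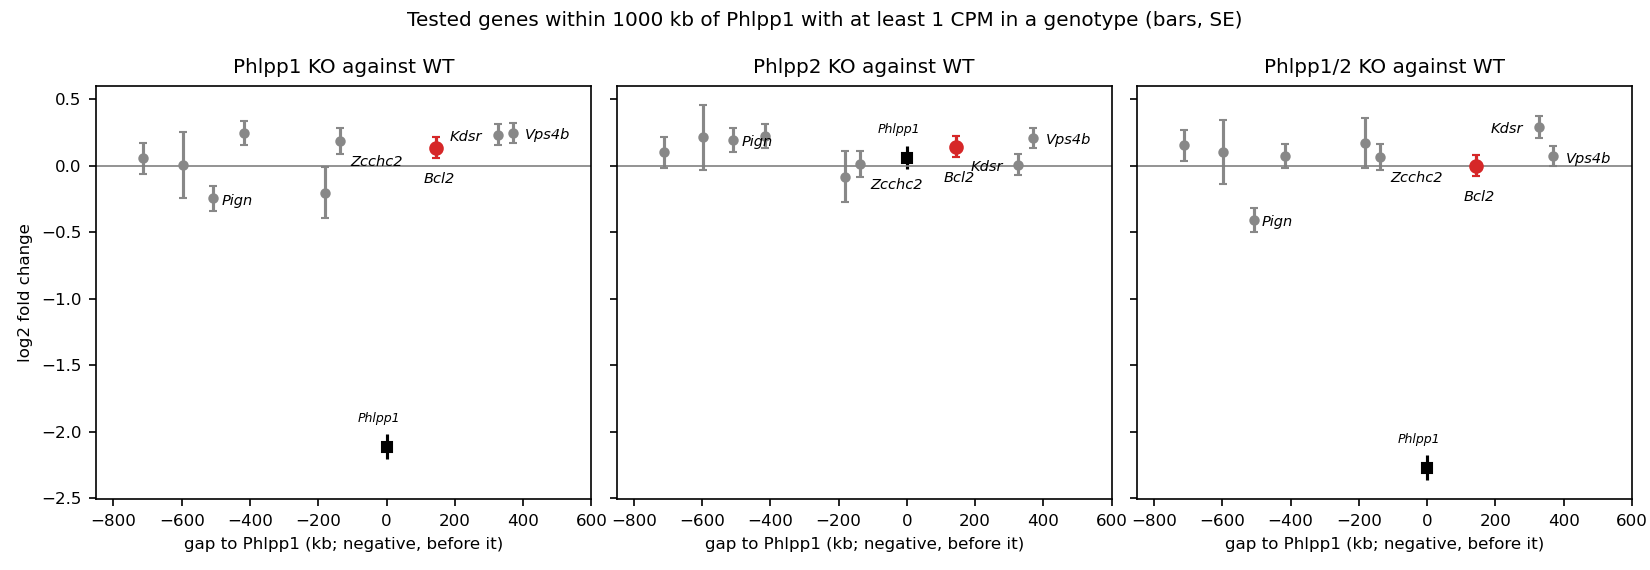
Log2 fold change against WT with its SE (vertical axis) of tested genes near Phlpp1 by the gap between the genes in kb (horizontal axis, negative for genes before Phlpp1), in 1 panel for each knockout. Phlpp1 itself (black square) is at -2.11 and -2.27 in the panels of its knockouts, while Bcl2 (red), 143.9 kb away, is at 0.14, 0.14 and 0.00.

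Of 13 other BCL2 family genes, 6 were tested and 0 were called against WT by edgeR, where 0.121% to 0.537% of all tested genes were. The 7 not tested (Bcl2a1a, Bcl2a1b, Bcl2a1d, Bcl2l10, Bik, Hrk and Bcl2l14) had at most 0.398 CPM in any library. Bcl2l2, which encodes the survival protein BCL-W, was at 15.7 CPM per kb in WT, above Bcl2. Among those with at least 1 CPM, Bmf, a BH3-only gene, had the largest difference, with 10.6 CPM (SD 0.896) in WT, 7.09 (SD 1.59) in the Phlpp1 KO, 8.61 (SD 1.76) in the Phlpp2 KO and 7.53 (SD 1.31) in the Phlpp1/2 KO. Its log2 fold changes were -0.59 (SE 0.191, adjusted p = 0.125), -0.30 (adjusted p = 0.516) and -0.50 (adjusted p = 0.35). Bcl2l15, at 0.514 CPM in WT and 0.827 in the Phlpp2 KO, gave 0.71 there (adjusted p = 0.438).

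Upstream and downstream of the family, 1 gene was called. Over all tested genes, 0.537% were called in the Phlpp1 KO against WT, 0.121% in the Phlpp2 KO and 0.235% in the Phlpp1/2 KO. Of 10 tested death receptors and adaptors, Tnfrsf1a, which encodes TNF receptor 1, fell in the Phlpp1 KO from 176.9 CPM (SD 5.57) to 141.0 (SD 6.30), or by a log2 difference of -0.33 (SE 0.060, adjusted p = 0.0317). Leaving out any 1 of the 6 libraries compared ended the call, with adjusted p between 0.0512 and 0.152 and log2 fold changes between -0.35 and -0.30. Tnfrsf10b, the receptor for TRAIL, was at 149.5 CPM (SD 3.81) in WT and 174.3 (SD 3.66) in the Phlpp1 KO (0.22, adjusted p = 0.0637), and Fas at 8.83 and 7.72 CPM there but 12.02 in the Phlpp2 KO (0.45, adjusted p = 0.218). Of 19 apoptosome, caspase and inhibitor genes 0 were called against WT. There, Birc2 was at 19.6 CPM in WT and 25.3 in the Phlpp1 KO (0.37, adjusted p = 0.103) and the effector caspase Casp6 at 17.1 and 11.5 CPM (-0.57, adjusted p = 0.114).

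Regulators of the BH3-only genes were called in 0 cases against WT (0.121% to 0.537% of all tested genes). At an unadjusted p under 0.05 (edgeR), the Phlpp1 KO had 7 of 18 p53 genes and 3 of 3 FOXO factors, against 20.4% of all tested genes. For the Phlpp2 KO these were 4 of 18 and 1 of 3 (13.8%), and for the Phlpp1/2 KO 1 of 18 and 2 of 3 (11.1%). Among the 8 integrated stress response genes there were 0 in each knockout. Of 18 genes of p53 and its targets, Mdm4, an inhibitor of p53, came closest with 38.7 CPM in WT and 49.6 in the Phlpp1 KO (0.36, adjusted p = 0.0865), and Perp was at 51.1 CPM in WT and 37.3 in the Phlpp1/2 KO (-0.46, adjusted p = 0.136). Of the 3 tested FOXO factors, Foxo3 was at 107.3, 92.7, 94.9 and 90.2 CPM in the order WT, Phlpp1 KO, Phlpp2 KO and Phlpp1/2 KO, with adjusted p of 0.117, 0.265 and 0.204. Foxo1 was at 46.4, 41.5, 45.2 and 38.9 CPM in the same order, with adjusted p of 0.224, 0.865 and 0.225. Foxo4 was at 69.3, 80.5, 64.8 and 68.3 CPM in that order, with log2 fold changes of 0.22 (adjusted p = 0.171), -0.10 (adjusted p = 0.649) and -0.02 (adjusted p = 0.949). The median log2 fold change of the 8 integrated stress response genes was -0.01 in the Phlpp1 KO, -0.14 in the Phlpp2 KO and -0.01 in the Phlpp1/2 KO. AKT kinases and 14-3-3 proteins (10 genes), genes listed for turnover of MCL1 and BIM (8 genes) and mitochondrial partners of BAX and BAK (9 genes) also held 0 called genes, with medians between -0.05 and 0.07.

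Genes whose log2 CPM followed that of a member most closely over the 12 libraries are given as a description, with no p. For Pmaip1, the member with the smallest adjusted p, they were Nfyb (Pearson r 0.906), Mkks (0.898), Kbtbd3 (0.880), Slc5a8 (0.871) and Fam120c (0.862), out of 13604 coding genes. For Bax, the member with the highest level per kb, they included Ndufs3 (0.949), Inpp5a (0.925), Mrps18a (0.924) and Mrpl44 (0.922). With the genotype means removed, these values were 0.659 to 0.906 for Pmaip1 and 0.858 to 0.909 for Bax. Libraries share depth and handling across all genes, and the highest of 13604 values is high by selection.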

How the data were processed

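The authors deposited raw counts per gene, with no scaling. The tools named, per the submitters' processing notes, were bcl2fastq 2.17, STAR 2.5.2b (mm10) and featureCounts (Subread 1.5.2). The strand setting is not given in the sources used here, nor is the annotation release.

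The count test was that of edgeR 4.0.16 under R 4.3.3 (TMM scaling, low-count filter by genotype, quasi-likelihood test, robust). All 12 libraries entered 1 fit with 8 residual degrees of freedom, and Benjamini-Hochberg adjustment ran over 16565 tested genes (32750 removed), with genes called under 0.05. DESeq2 1.42.0 and limma-voom 3.58.1 were alternatives, as were RLE factors, no filter, a replicate block, only the compared groups, leaving out the 2 low-Xist libraries and leaving out each library. Median biological variation of tested genes was 9.76%. The edgeR code was tested on simulated data. SD is over 3 libraries. SE was derived from the log2 fold change and its F statistic. Exon lengths and positions came from GENCODE vM21, and near-identical copies were searched with BLAST+ 2.17.0 (identity of at least 95% over 150 bases); only genes overlapping the members were found. Promoter windows came from RefSeq GRCm38.p6. Replicate pairs within genotypes differed beyond sampling noise (chi-square per degree of freedom 9.01 to 38.9), and each library counted once.

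The members and lists were chosen with earlier results of these data known. Named were all 10 members. From each other list the rule took up to 4 genes with at least 1 CPM and the smallest adjusted p against WT, of which the text gives the main ones. Also named were tested genes within 1000 kb of Phlpp1 or Phlpp2 where called or nearest, and the genes most like Pmaip1 (5) and like Bax (4 named; 1 item is not reported here).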

Additional observations from a re-analysis of the deposited data

How the results depend on the processing

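Of 1320 refitted values of the members (each comparison under each alternative), 1318 were not called, and the other 2 are those of Bid without Phlpp2 KO replicate 1. Pmaip1 in the Phlpp1 KO against WT ranged from 0.31 to 0.45 on the log2 scale, with 0.0712 the smallest adjusted p.

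Calls over all genes depended on the setting, and the cause was not tested. In the order Phlpp1 KO, Phlpp2 KO and Phlpp1/2 KO against WT, Phlpp1/2 KO against Phlpp1 KO and against Phlpp2 KO, Phlpp1 KO against Phlpp2 KO, interaction, main effects of Phlpp1 and of Phlpp2, edgeR called 89, 20, 39, 2, 12, 25, 8, 98 and 15 genes. DESeq2 called 990, 317, 168, 21, 44, 176, 650, 400 and 59, and edgeR without a filter 461, 110, 102, 14, 32, 119, 183, 274 and 40. Limma-voom called 13 for the Phlpp2 KO. With only the compared groups in the fit, the Phlpp1 KO had 1163 calls, and the Phlpp1/2 KO had 1 against the Phlpp1 KO and 3 against the Phlpp2 KO. Without the 2 low-Xist libraries there were 18 calls for the Phlpp1 KO, 3 for the Phlpp1/2 KO against the Phlpp2 KO, 11 between the single knockouts, 4 for the interaction and 28 for the main effect of Phlpp1. Leaving out 1 library gave, in the same order, 16 to 57, 9 to 22, 18 to 34, 2 to 4, 4 to 132, 8 to 207, 5 to 1196, 38 to 568 and 10 to 20. The highest of these were without Phlpp1/2 KO replicate 3 (132 and 1196) and without Phlpp2 KO replicate 1 (207 and 568); members called were 0 to 1 for the Phlpp1 KO against the Phlpp2 KO and 0 to 1 for the main effect of Phlpp1.

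Same-numbered libraries deviated together in 4 of 18 pairs (correlation over 0.1, range -0.16 to 0.3), where differently numbered pairs ranged from -0.28 to 0.22. Of 12 libraries, 5 correlated best with their own number. Whether a replicate number marks a shared batch was not tested. With the replicate block, calls were 245 for the Phlpp1 KO, 84 for the Phlpp2 KO, 15 between the single knockouts, 308 for the interaction and 51 for the main effect of Phlpp1, and 0 members were called.

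Of other genes named, Tnfrsf1a was called under 6 of 13 alternatives, Pign between Phlpp1/2 KO and Phlpp2 KO under 6 of 13, and Phlpp2 in the Phlpp2 KO became called under 3 of 13 (DESeq2, no filter, replicate block). Depth limits Pmaip1 and Bcl2l11 most, at 123 to 227 and 193 to 305 counts per library.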
